A study of Caenorhabditis elegans with 2 samples.

Results

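The outer arms of chromosomes II, III and V of Caenorhabditis elegans are described here through the candidate binding regions of the BED-2 protein that lie on them. An arm was taken as the first or the last 25% of a chromosome's length, so the 3 chromosomes give 6 arms, and the remaining central stretch is called the centre. Each candidate peak was placed by its own summit. Peaks that overlapped within the same arm or centre were then merged into regions, keeping the summit of the strongest. This gave 16805 arm regions of 64322 in the whole genome, against 16196 regions in the centres of the same chromosomes. BED-2 binding was measured by chromatin immunoprecipitation with sequencing (ChIP-seq) using an anti-GFP antibody. The material was whole worms of strain RW12335, which carries the allele st12335[TY1::EGFP::3xFLAG::bed-2], an EGFP and FLAG tag inserted by CRISPR at bed-2 on chromosome III. The worms were young adults of 63 hours, grown from larvae that had been starved after bleaching so that they started development together, and the chromatin was sonicated to a stated size range of 200 to 800 bp. The labels give 1 group of 2 biological replicates and no other genotype or stage, so arms are compared with centres inside the same samples, and the input control was not analysed here.

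As background, the autosomes of this worm are holocentric and their arms differ from their centres: arms recombine more, hold more repeats and transposon remnants, and carry more of the histone H3 lysine 9 methylation that marks heterochromatin. Centres hold more of the conserved and essential genes, while gene families that expanded recently, such as chemoreceptors and F-box genes, crowd the arms. BED-2 has a zinc finger of the BED type, a fold that contacts DNA and is named after proteins of the fly Drosophila. The arms used here follow a rule of length, and the borders drawn from recombination maps lie elsewhere.

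Some of the strongest arm regions are shown first as sequence, since they are among the places on the arms where the tagged protein gave its highest signal. Each holds a summit with 50 bases on either side, plus strand of assembly ce11, read from the RefSeq genome of that assembly. The windows lie at chrII:14561815-14561915 upstream of mog-4, chrIII:10759218-10759318 upstream of tasp-1 and chrII:11534930-11535030 upstream of Y62F5A.12. The others lie at chrIII:1619076-1619176 between Y22D7AL.10 and hsp-60, and chrII:2451150-2451250 in intergenic sequence whose nearest start is that of cel-mir-72. Capitals mark the words ACGCGC and GTACAC and their reverse complements.
mog-4: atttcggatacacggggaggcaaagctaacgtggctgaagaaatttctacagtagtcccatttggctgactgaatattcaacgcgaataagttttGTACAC
tasp-1: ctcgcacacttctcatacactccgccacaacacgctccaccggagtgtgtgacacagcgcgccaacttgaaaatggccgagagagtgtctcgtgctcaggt
Y62F5A.12: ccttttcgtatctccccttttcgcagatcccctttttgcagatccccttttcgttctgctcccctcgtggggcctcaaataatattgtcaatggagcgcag
Y22D7AL.10: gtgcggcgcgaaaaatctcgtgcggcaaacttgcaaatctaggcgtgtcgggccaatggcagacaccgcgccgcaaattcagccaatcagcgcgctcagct
cel-mir-72: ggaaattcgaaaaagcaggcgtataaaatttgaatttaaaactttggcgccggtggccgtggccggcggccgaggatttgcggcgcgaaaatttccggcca

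The only marked word in these 5 windows was the 1 GTACAC of mog-4, on the right edge of its window, and ACGCGC was in none of them. Their GC content spanned 42.6% at mog-4 to 59.4% at Y22D7AL.10, against a median of 41.6% over the windows of all arm regions. The windows of Y22D7AL.10 and cel-mir-72 each held 12 CG dinucleotides, tasp-1 held 8, and mog-4 and Y62F5A.12 held 5 each. The strongest windows are thus unlike each other in base composition, and the 2 words, which were picked from earlier results of these data, are carried by other arm regions. The windows of mog-4 and Y62F5A.12 also matched sequence elsewhere in the genome, as described further on.

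Over all windows of the arms and centres, ACGCGC occurred in 2.01% and GTACAC in 2.84% of 33001, counting both strands. A region is called listed below where it overlaps, by at least 1 base, the conservative list of the authors, made from both replicates at a global irreproducible discovery rate (IDR) of 0.01. The IDR compares the ranks of peaks between replicates and is low for peaks that rank high in both. Over the arms and centres together 0.855% of regions were listed, and over the whole genome 0.88%. Among the 116 listed arm regions, 17 held ACGCGC (14.7%, 95% exact Clopper-Pearson interval 8.78% to 22.4%), against 22 of 166 listed central regions (13.3%, 8.50% to 19.4%). Among arm regions that were not listed, 2.32% of 16689 held it, against 1.48% of 16030 in the centre. GTACAC was in 11 listed arm regions (9.48%, 4.83% to 16.3%) and in 23 listed central regions (13.9%, 8.99% to 20.1%), so the intervals of arms and centres overlapped for both words. Only 2 listed arm regions held both words, near the snRNA gene F08G2.11 and the pseudogene WBGene00019095. The listed windows were also richer in GC, with a median of 52.5% in the arms and 49.5% in the centres.

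Listed regions were rarer among the candidates of the arms than among those of the centres. Of the 16805 arm regions 116 were listed (0.690%, 0.571% to 0.827%), against 166 of 16196 central regions (1.02%, 0.876% to 1.19%). The share over both, 0.855%, lies between them. Intervals of this kind cover counting error over regions only, since the files carry no read counts and the depth of each sample is unknown. In a binomial model with chromosome as a covariate and errors clustered in blocks of 1 Mb, the odds of being listed in the arms were 0.674 times those in the centre (95% interval 0.466 to 0.973, two-sided binomial Wald test, adjusted p = 0.0487 by Benjamini-Hochberg over 11 tests). Candidates themselves stood at 672 regions per Mb in the arms and 648 per Mb in the centres, while listed regions stood at 4.64 per Mb and 6.64 per Mb. Annotated genes were thinner on the arms, at 303 per Mb against 375 per Mb in the centres.

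The call was lost under several other settings. It did not pass the threshold with error blocks of 2 Mb (adjusted p = 0.0928, binomial Wald test, at the same odds ratio), with 33.3% of the length at each end as arms (odds ratio 0.804), without chromosome V (0.884) and with annotation class as a covariate (0.720), the last chosen after the data were seen. It was also lost at an IDR of 0.05 (0.863), with peaks left unmerged (0.740) and, as described further on, when recurring sequence was left out (0.998).

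The replicates gave the same direction from their own lists. In replicate 1, 50 arm regions (0.297%) overlapped the list made from that replicate alone, against 75 central regions (0.463%), and the share over both was 0.379%. In replicate 2 the counts were 47 arm regions (0.280%) and 75 central regions (0.463%), and the share over both was 0.37%. Built wholly from 1 replicate's ranked and thresholded lists, the odds ratio was 0.630 in replicate 1 (0.365 to 1.09, adjusted p = 0.153, binomial Wald test) and 0.595 in replicate 2 (0.387 to 0.914, adjusted p = 0.0391, binomial Wald test). Both estimates lay below 1, and the one for replicate 1 did not pass the threshold.

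The 6 arms were far from alike. The right arm of chromosome II had 35 listed regions of 2650 (1.32%), its left arm 11 of 2608 (0.422%), and the centre of II had 51 of 5060 (1.01%). On chromosome III the right arm had 29 of 2254 (1.29%), the left arm 11 of 2212 (0.497%), and the centre 45 of 4547 (0.990%). On chromosome V the right arm had 16 of 3580 (0.447%), the left arm 14 of 3501 (0.400%), and the centre 70 of 6589 (1.06%). The right arms of II and III thus had shares somewhat above their centres, with overlapping intervals. The left arms of all 3 chromosomes and the right arm of V were below their centres. The intervals also overlapped for the left arms of II and III, and only those of the arms of V lay clear of their centre.

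Over the 3 chromosomes the right arms had 80 listed regions of 8484 (0.943%) and the left arms 36 of 8321 (0.433%). The odds in the right arms were 2.19 times those in the left arms (1.33 to 3.62, adjusted p = 0.00700, binomial Wald test, Benjamini-Hochberg over 10 comparisons that were all chosen after the data were seen). By chromosome, the ratio of right over left was 3.16 on II (1.38 to 7.24, adjusted p = 0.0163, binomial Wald test), 2.61 on III (1.10 to 6.19, adjusted p = 0.0595, binomial Wald test) and 1.12 on V (0.534 to 2.34, adjusted p = 0.853, binomial Wald test). In the same family, the arms against the centre gave 0.867 on II (0.435 to 1.73), 0.904 on III (0.469 to 1.75) and 0.396 on V (0.257 to 0.610), and the one on V alone passed the threshold (adjusted p = 2.59e-04, binomial Wald test). The difference between V and II in this effect was itself tested and did not pass (ratio 0.457, 0.206 to 1.01, adjusted p = 0.0905, binomial Wald test).

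The imbalance between the arms of II and III had the same direction in each replicate. Shares are of the candidates of each arm, beside 0.379% over arms and centres in replicate 1 and 0.37% in replicate 2. In replicate 1 the right arm of III had 15 regions in that replicate's list (0.67%) against 3 in the left arm (0.14%). In replicate 2 it had 10 (0.44%) against 4 (0.18%). On II the counts were 17 in the right arm (0.64%) and 5 in the left (0.19%) in replicate 1. In replicate 2 they were 13 in the right (0.49%) and 7 in the left (0.27%). On V they were 5 and 5 in replicate 1 (both 0.14%), and 7 in the right (0.20%) and 6 in the left (0.17%) in replicate 2. The counts per arm are small, and no test was run on them.

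**Figure D1:**
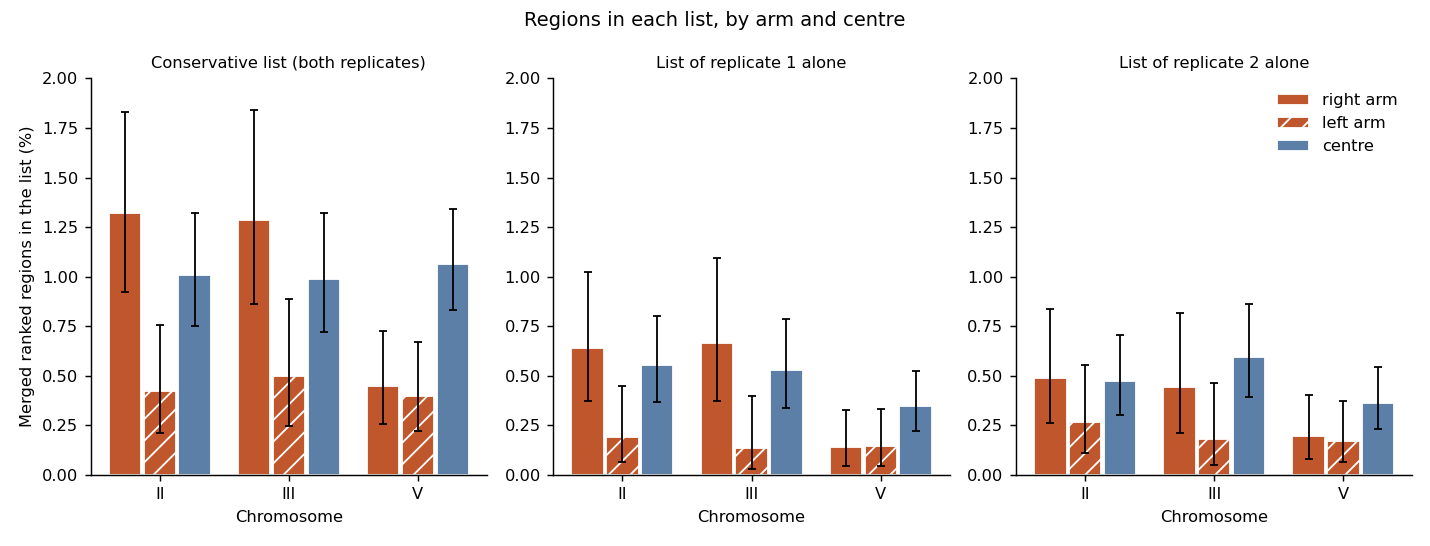
Share of merged ranked regions (y axis, percent) that overlap the conservative list, the list of replicate 1 and the list of replicate 2, for the right arm, left arm and centre of chromosomes II, III and V (x axis); bars are shares and lines are 95% exact Clopper-Pearson intervals. The right arms of II and III stand at 1.32% and 1.29% in the conservative list, while the arms of V stand at 0.447% and 0.400%, below the 1.06% of its centre.

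Within an arm, listed regions were spread unevenly. By eighths of the chromosome, the inner eighth of the right arm of III had the highest share, with 21 of 1085 regions (1.94%), against 8 of 1169 (0.684%) in its outer eighth. The outermost eighth on the left of II had the lowest, with 3 of 1227 (0.244%). The gap between neighbouring listed summits of 1 arm had a median of 85.3 kb over 110 pairs and ran up to 1.55 Mb. In 15 pairs the summits lay within 10 kb, and the closest pair, 588 bp apart, lies between the divergent genes ecps-1 and atx-2 on III.

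**Figure D2:**
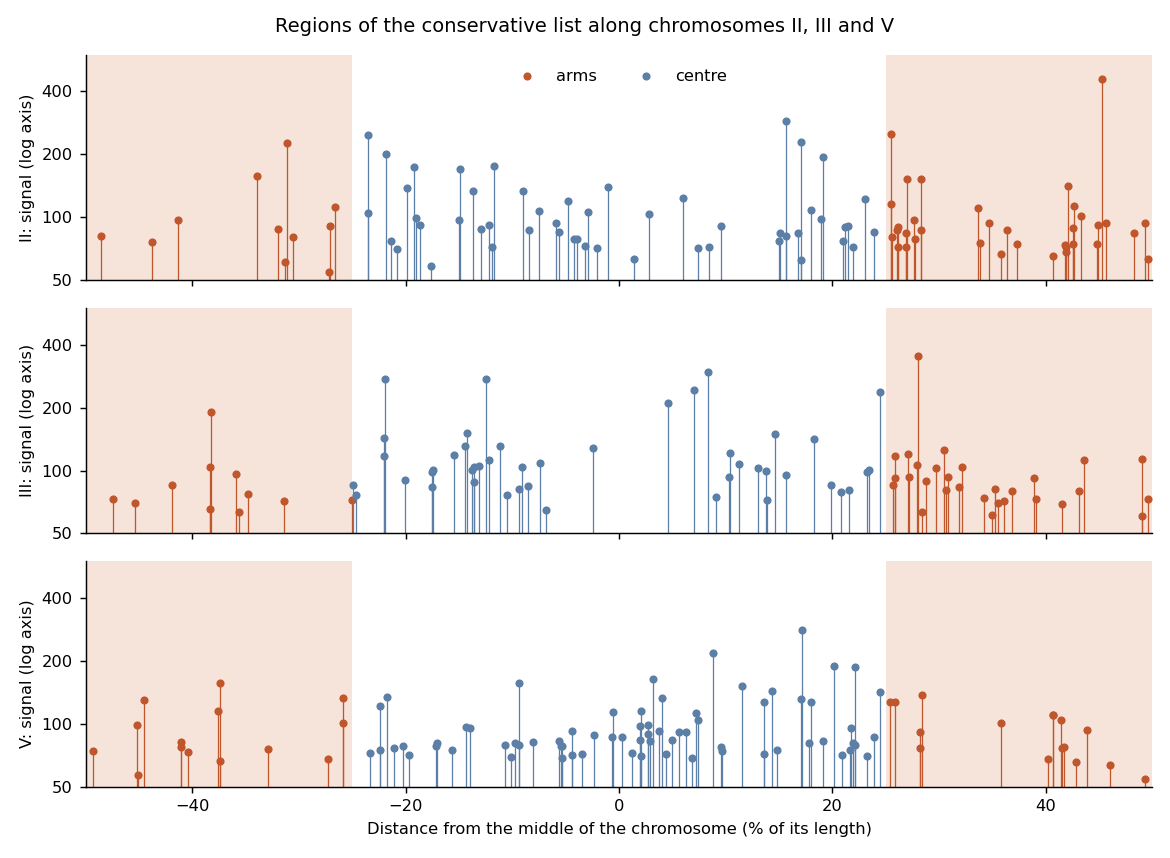
Signal of the 282 listed regions (y axis, log scale, the authors' signal) against distance from the middle of the chromosome as percent of its length (x axis), 1 panel per chromosome, with the arms shaded. The highest point of the 3 chromosomes, 458.8 near mog-4, lies in the right arm of II, and the arms of V hold no point above 156.3.

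At each border between an arm and a centre, the nearest listed regions on both sides are given as a description. The nearest listed region inside the left arm of III, near K01A11.8, lay 7.11 kb from the border with a signal of 72.0, and the nearest in the centre, near C34C12.1, lay 10.5 kb from it with 85.1. At the right border of II the nearest listed region was Y62F5A.12 in the arm, 75.4 kb away with 248.8, and C47G2.3 in the centre, 169 kb away with 85.1. At the right border of III these were enu-3.1 in the arm with 85.0 and cnk-1 in the centre with 238.8. At the remaining borders the arm side had 111.4 near the tRNA gene WBGene00023164 (left of II), 132.6 near pqn-51 (left of V) and 127.4 near F57A10.2 (right of V), against 248.1 near WBGene00023318, 72.5 near CD4.17 and 141.7 near F28F8.7 on the central side. Counting every candidate, listed or not, the nearest arm regions had signals of 17.2 to 56.9 and the nearest central regions 8.83 to 63.0.

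The signal of a region is the value the authors' peak caller gave to its strongest peak, and it is used here to describe and rank regions. Over all candidates the median was 24.5 in the arms (quartiles 18.0 and 32.3) and 23.9 in the centres (17.5 and 31.4). The difference was small but larger than its error, at 0.04 on the log2 scale (0.01 to 0.06, adjusted p = 0.00179, Wald test of a linear model, n = 33001 regions). It fell short of the threshold in either replicate alone, at 0.0198 without replicate 1 and 0.00434 without replicate 2, and among regions above the median signal of all candidates (0.00492).

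Among listed regions the order was the other way round. Their median signal was 84.9 in the arms (quartiles 73.3 and 104.4) and 91.4 in the centres (78.5 and 121.8), a difference of -0.18 on the log2 scale (-0.29 to -0.07, adjusted p = 0.00219, Wald test of a linear model, n = 282 regions). Counts by signal are set beside the 116 listed arm regions and the 166 listed central ones. At a signal of at least 80 the arms had 69 listed regions of 74 candidates, and the centres 118 of 126. At 100 or more these were 35 of 37 and 65 of 71, and at 150 or more 9 of 9 and 22 of 23. Nearly all candidates this strong were thus listed in both parts. The top of the arms was still the highest of the 3 chromosomes, with 458.8 in the arms against 295.1 in the centres. By chromosome the medians of listed regions were 86.8 in the arms and 91.3 in the centre of II, 82.5 and 102.8 on III, and 86.7 and 83.1 on V, so on V the arms were not lower. The difference did not pass the threshold without chromosome III (-0.095) or in either replicate alone (-0.11 without replicate 1 and -0.14 without replicate 2).

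The strongest arm region lay 266 bp upstream of mog-4, which encodes a DEAH-box RNA helicase needed for the switch from sperm to oocytes in the germline. Its signal was 222.2 in replicate 1 and 243.5 in replicate 2, and 458.8 in the pooled list. The next lay 39 bp upstream of tasp-1, the worm gene for the protease taspase, with 150.7 in replicate 1, 202.3 in replicate 2 and 352.8 pooled. Both sites are on right arms, and both overlapped each replicate's own thresholded list. At mog-4 the summit window also matched sequence elsewhere in the genome, and at tasp-1 it did not.

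The strongest on the left arm of III lay 197 bp upstream of Y22D7AL.10 and 616 bp upstream of the divergent gene hsp-60, which encodes the mitochondrial chaperonin. It had 98.8 in replicate 1, 92.7 in replicate 2 and 189.9 pooled, so the replicates were nearly level there. On the left arm of V the strongest was at W02H5.19, 164 bp upstream of its start, with 78.8 in replicate 1, 77.6 in replicate 2 and 156.3 pooled. On the right arm of V it was 159 bp upstream of F13A7.14, with 54.8 in replicate 1, 83.4 in replicate 2 and 137.6 pooled.

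Among the 20 strongest arm regions were also known protein-coding genes and small RNA genes. A region between F44E5.4 and F44E5.5, a divergent pair of heat-inducible HSP70 genes, had 74.1 in replicate 1 and 77.9 in replicate 2. One upstream of lem-2, which encodes a protein of the inner nuclear membrane, had 77.6 in replicate 1 and 63.4 in replicate 2, and its window was the poorest in GC of the 19 described, at 25.7%. One 46 bp upstream of atx-2, the worm ataxin-2 gene for an RNA-binding protein, had 53.7 in replicate 1 and 68.4 in replicate 2. The snoRNA gene W03C9.9, 50 bp downstream of its summit, had 77.2 in replicate 1 and 68.5 in replicate 2, and snoRNAs guide chemical modification of ribosomal RNA. An intronic summit whose nearest start is sls-2.15, a gene of the SL2 spliced leader RNA, had 65.1 in replicate 1 and 63.9 in replicate 2.

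A run of listed regions lay at the inner end of the right arm of II. The summits near Y62F5A.12 and near the non-coding RNA gene Y62F5A.16 were 2373 bp apart, and the next, near dnj-13, a gene of a J-domain co-chaperone, followed after 8111 bp. The summit near Y62F5A.16 lay within 1000 bp of the annotated starts of the microRNA genes cel-mir-35 to cel-mir-41, a cluster whose microRNAs are needed in embryos. Its signal was 68.1 in replicate 1, 52.3 in replicate 2 and 116.1 pooled. The signal near Y62F5A.12 was 153.0 in replicate 1 and lower in replicate 2 (log2 ratio of replicate 2 over replicate 1 of -0.60), the clearest case among these regions in which replicate 1 was higher.

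**Figure D3:**
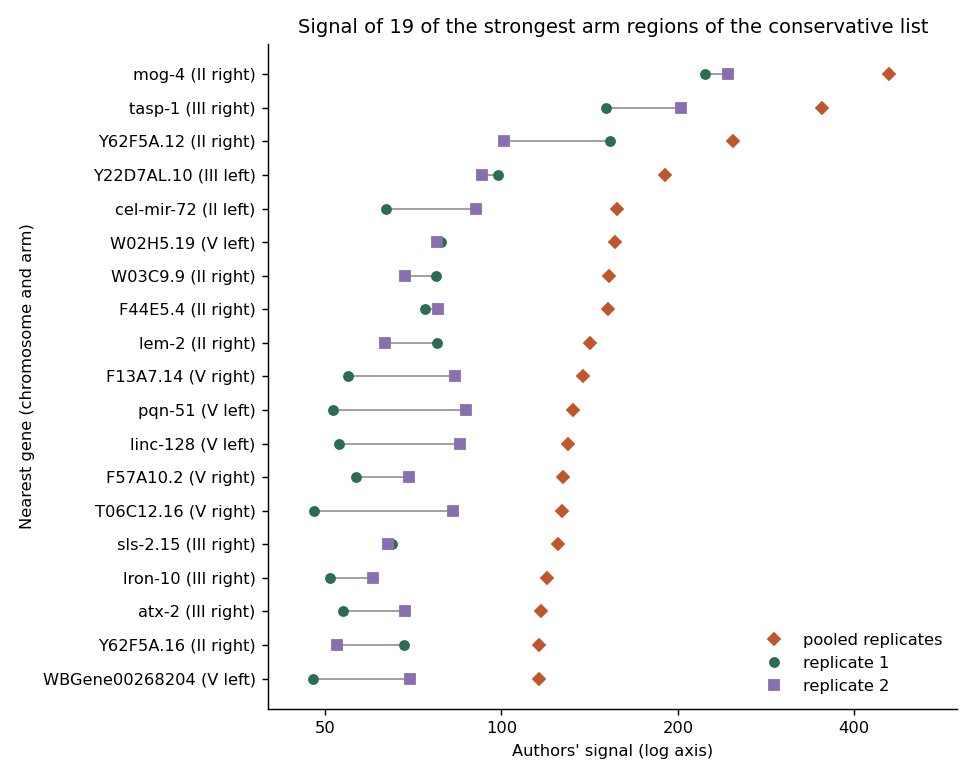
Signal (x axis, log scale) of 19 of the 20 strongest listed arm regions in replicate 1 (circles), replicate 2 (squares) and the pooled list (diamonds), named by the gene with the nearest start. The pooled values run from 458.8 at mog-4 to 115.9 near WBGene00268204, and the replicates lie close at W02H5.19 and sls-2.15 and apart at T06C12.16.

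Replicates ranked the listed arm regions loosely. Over the 115 with a peak in both ranked lists, the median signal was 42.0 in replicate 1 and 43.6 in replicate 2, and Spearman's rho was 0.328, against 0.460 over 165 listed central regions, both given as a description of points that share 2 libraries. In replicate 1's own list 45 of the 116 were found (38.8%) and in replicate 2's own list 39 (33.6%), 25 in both and 57 in neither. In the centres 70 of the 166 (42.2%) and 65 (39.2%) were found, 45 in both and 76 in neither. The extremes were ecps-1 on III, with 69.9 in replicate 1 and 34.2 in replicate 2 (log2 ratio of replicate 2 over replicate 1 of -1.03), and set-16, a gene for a histone H3 lysine 4 methyltransferase of the MLL type, with 28.3 in replicate 1 and 88.2 in replicate 2 (1.64). The region near ppk-2, a gene for a phosphatidylinositol phosphate kinase, had 34.5 in replicate 2 and no peak in the ranked list of replicate 1.

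Candidate summits were shared out differently among parts of the gene in the arms and in the centres. These shares are of all candidates, of which 0.855% were listed. How many arm and central bases belong to each class was not counted, so the part of sequence make-up in these differences was not tested. Promoters, the 1000 bp that precede any transcript start, held 29.6% of arm regions and 34.6% of central regions (odds ratio 0.789, 0.718 to 0.867, adjusted p = 2.09e-06, binomial Wald test). Introns held 26.8% in the arms and 17.0% in the centres (odds ratio 1.80, 1.58 to 2.06, adjusted p = 3.17e-17, binomial Wald test). Non-coding RNA bodies were also more frequent in the arms (3.57% against 2.59%, odds ratio 1.38, adjusted p = 0.00676, binomial Wald test), a call that was lost with 20% of the length at each end as arms (1.25), above the median signal (1.12) and without chromosome V (1.16). The 3' UTR class held 1.29% in the arms and 2.48% in the centres (odds ratio 0.515, adjusted p = 1.36e-10, binomial Wald test) and coding exons held 24.3% and 29.6% (odds ratio 0.766, adjusted p = 7.58e-09, binomial Wald test), the last reversed to 1.08 when recurring windows were left out. The 5' UTR and intergenic classes did not pass the threshold (odds ratios 0.813 and 1.09). With 20% at each end as arms both passed (0.731 and 1.16), and intergenic sequence also passed with promoters of 2000 bp (1.22). Summits also lay farther from the nearest transcript start, at a median of 895 bp in the arms and 769 bp in the centres.

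Listed regions were mostly at promoters in both. In the arms 81 of the 116 were in promoters (69.8%, 60.6% to 78.0%), against 129 of 166 in the centres (77.7%, 70.6% to 83.8%). Introns held 17 listed arm regions (14.7%, 8.78% to 22.4%) and 11 listed central regions (6.63%, 3.35% to 11.6%). Intergenic sequence held 12 in the arms (0.535% of its candidates there) and 10 in the centres (0.499%), so the shares were nearly level. Coding exons held 4 (0.098%) and 7 (0.146%), and non-coding RNA bodies 2 (0.333%) and 6 (1.43%). The 5' UTR class held 0 and 2 (0.926%), and the 3' UTR class 0 and 1 (0.249%). A count of 0 was taken to allow up to 3 counts, a rougher limit than the exact interval. By this rule 0 among 183 arm candidates in 5' UTRs allows a share of up to 1.64%, and 0 among 216 in 3' UTRs allows up to 1.39%.

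Restricting to promoters left the ratio below 1 but not past the threshold. Of 4969 arm promoter regions 1.63% were listed, against 2.30% of 5609 in the centres, and 1.99% over both (odds ratio 0.704, 0.456 to 1.09, adjusted p = 0.129, binomial Wald test). The right arms had 58 of 2465 (2.35%) and the left arms 23 of 2504 (0.919%). In introns 0.378% of the arm candidates and 0.400% of the central ones were listed. The strongest intronic examples in the arms had sls-2.15 (124.9) and Y46G5A.34 (110.8, 40.5 in replicate 1 and 69.5 in replicate 2) as the nearest starts. In coding exons the strongest, on the left arm of III, had 28.2 in replicate 1, 63.2 in replicate 2 and 96.3 pooled. Its nearest start was that of F53A3.1, 4387 bp away. The next, with 62.9 pooled, had spsb-1 as the nearest start, 1653 bp away.

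**Figure D4:**
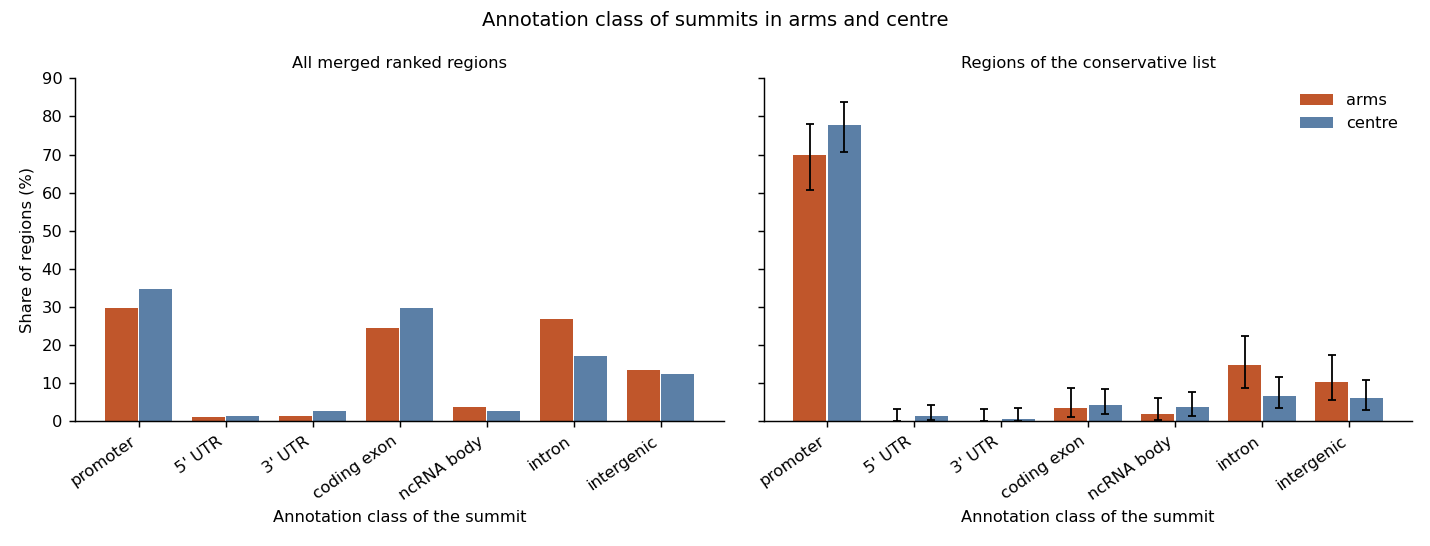
Share of regions (y axis, percent) in each annotation class (x axis) for arms and centre, over all merged ranked regions (left panel) and over listed regions (right panel, with 95% exact Clopper-Pearson intervals). Introns hold 26.8% of arm and 17.0% of central candidates, and promoters hold 69.8% of listed arm and 77.7% of listed central regions.

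Arm sequence recurs elsewhere in the genome more often, and the shares of listed regions differed with it. A summit window was said to have another copy where at least 50 of its bases matched another place at 80% identity or more. Such windows made up 39.7% of arm regions and 14.1% of central regions. Among them 34 of 6672 arm regions were listed (0.510%, 0.353% to 0.711%), against 53 of 2277 central regions (2.33%, 1.75% to 3.03%). Among windows with no other copy 82 of 10133 arm regions were listed (0.809%, 0.644% to 1.00%), against 113 of 13919 central regions (0.812%, 0.670% to 0.975%). So the shares were level where the sequence was unique, and they were 0.510% and 2.33% where it recurred.

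The odds ratio of arms over centre was 0.215 in windows with another copy (0.136 to 0.340, adjusted p = 4.88e-10, binomial Wald test) and 0.998 in windows without one (0.649 to 1.54, adjusted p = 0.992, binomial Wald test). The difference was tested as an interaction, whose ratio was 0.216 (0.124 to 0.378, adjusted p = 2.28e-07, binomial Wald test, Benjamini-Hochberg over 9 comparisons chosen after the data were seen). In each replicate's own list the interaction had a ratio of 0.205 in replicate 1 (adjusted p = 7.74e-05, binomial Wald test) and 0.149 in replicate 2 (adjusted p = 2.01e-06, binomial Wald test). By chromosome, the arm and centre shares of recurring windows were 0.622% and 3.06% on II, 0.641% and 1.77% on III, and 0.363% and 2.20% on V. Among windows without a copy they were 1.02% and 0.703% on II, 1.05% and 0.867% on III, and 0.469% and 0.859% on V. On V the arms therefore had the lower share in both kinds of window, and this was not tested by chromosome.

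How reads from recurring sequence were placed is not given in the sources used here, and its part in these shares was not tested. In the recurring arm windows 37 regions reached the IDR threshold, of which 34 were listed, against 59 and 53 in the centres. The arm regions that reached it and were not listed lay near Y61B8B.3 on V (133.0), near rrn-4.2, a 5S ribosomal RNA gene on V (131.7), and at Y8A9A.2 on II (90.4), and all 3 had another copy. Their signals in replicate 1 and replicate 2 were 73.1 and 61.9 near Y61B8B.3, 51.5 and 75.8 near rrn-4.2, and 44.4 and 40.3 at Y8A9A.2. The strongest arm region below the threshold was 749 bp upstream of W09B6.4, with 93.4 pooled, 69.9 in replicate 1 and 27.3 in replicate 2, and it also had a copy and lay in replicate 1's own list.

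Recurring windows were also split by the biotype of the nearest start, without a test. Protein-coding genes were nearest in 24 of the 34 listed arm regions with a copy and in 31 of the 53 central ones. Pseudogenes were nearest in 3 of the 34 and 9 of the 53, although 936 recurring arm candidates and 258 central ones lay nearest a pseudogene, so 0.321% were listed in the arms and 3.49% in the centres. Among recurring candidates nearest an snRNA gene, 3 of 23 were listed in the arms and 4 of 25 in the centres. Near protein-coding genes the shares listed were 0.4995% in the arms and 1.967% in the centres. Near ncRNA genes 0 of 593 were listed in the arms and 6 of 285 in the centres, and near tRNA genes 2 of 70 and 3 of 54. Near snoRNA genes the order was the other way, with 2 of 62 in the arms and 0 of 13 in the centres. The listed counts near snRNA, tRNA and snoRNA genes are too few to compare.

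**Figure D5:**
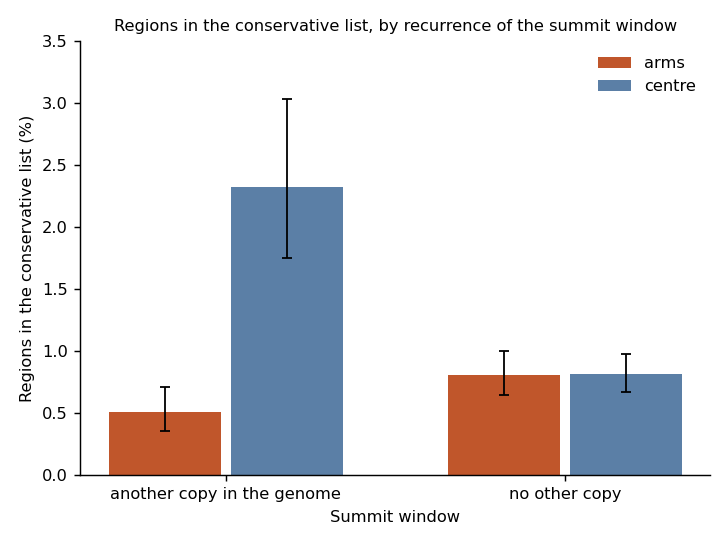
Share of regions in the conservative list (y axis, percent) for arms and centre, by whether the summit window has another copy in the genome (x axis); lines are 95% exact Clopper-Pearson intervals. With another copy the shares are 0.510% in the arms and 2.33% in the centre, and with no other copy they are 0.809% and 0.812%.

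Genes were called bound where a listed summit lay within 1000 bp of one of their transcript starts, and over the whole genome 1.97% of 46890 genes were. On the arms 171 of 7580 genes were bound (2.26%), against 286 of 9380 in the centres (3.05%). By chromosome the order differed. The arms stood above the centre on II (3.119% against 2.715%) and on III (3.618% against 3.014%). On V they stood below it (1.026% against 3.278%). The right arms of II and III stood at 5.80% and 5.88%, the left arms at 1.13% and 1.46%, and the arms of V at 0.939% on the right and 1.13% on the left. Protein-coding genes were bound in 108 of 5104 cases on the arms (2.12%) and in 177 of 5979 in the centres (2.96%). Several genes can share 1 summit, so these counts are larger than those of regions.

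Genes of the translation and RNA-processing machinery are given next, beside the 2.26% of all arm genes that were bound. Among snRNA genes 5 of 31 were bound on the arms (16.1%) and 6 of 38 in the centres (15.8%). The summit lay 9 bp inside R07E5.16 and 42 bp upstream of sls-2.8, another SL2 gene, which shares its region with tim-1, the worm Timeless gene. Among snoRNA genes 9 of 66 were bound on the arms (13.6%) and 18 of 114 in the centres (15.8%), with W03C9.9 (152.5), T06C12.16 (127.1) and F19H8.6 (93.7) the highest. Among tRNA genes 8 of 87 were bound on the arms (9.20%) and 10 of 112 in the centres (8.93%), the highest being the pair WBGene00023164 and WBGene00023165 on the left arm of II (111.4). Of 6 genes for cytosolic ribosomal proteins on the arms 1 was bound, rpl-43 on II (113.6 in the region it shares with Y48B6A.1), against 4 of 30 in the centres. For these lists the shares on arms and centres lay close, and no test was run on them.

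Large gene families were read against the 2.26% of all arm genes with a listed summit. That share ran from 0.939% in the right arm of V to 5.88% in the right arm of III. The families were not matched for the arm they lie on. Of 703 chemoreceptor genes on the arms, receptors of sensory neurons, 1 was bound (0.142%), srw-85 on V (65.6), against 1 of 387 in the centres (0.258%). None of 295 F-box and MATH-BATH genes was bound on the arms, which allows a share of up to 1.02% by the same rule of 3 counts. None of 34 was bound in the centres, which allows up to 8.82%. None of 96 C-type lectin genes and none of 50 cytochrome P450 and glucuronosyl transferase genes was bound on the arms, nor any of 52 and 55 in the centres. These counts of 0 on the arms allow shares of up to 3.13% for the lectins and 6% for the enzymes, both above the share of all arm genes. In the centres the counts of 0 allow up to 5.77% for the lectins and 5.455% for the enzymes. Of 120 nuclear hormone receptor genes 1 was bound on the arms, nhr-239 on III (71.3), against 0 of 70 in the centres. Of 21 cuticle collagen genes 2 were bound on the arms (9.52%), col-71 (90.7) and col-96 (61.0), against 0 of 55 in the centres. Over the whole genome 3 of 173 were bound (1.73%), beside 1.97% of all genes, and a count of 2 is too small to compare. The summit at col-71 lay nearer the start of Y49F6B.2, and that at col-96 lay in a coding exon. Among pseudogenes 4 of 957 were bound on the arms (0.418%) and 6 of 424 in the centres (1.42%).

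Several genes of DNA replication and genome maintenance had listed summits just upstream on the right arm of III. They were pola-1, a DNA polymerase alpha gene (92.7, 59.9 in replicate 1 and 37.1 in replicate 2), mcm-10, a replication factor gene (104.0, 62.9 and 42.9), and mrt-2, a DNA damage checkpoint gene (81.6, 42.8 and 40.6). The checkpoint gene hpr-9 shares the region of lron-10 (119.7, 51.0 and 60.4), and the cohesin gene smc-3 shares that of mib-1 (83.4, 45.8 and 37.8). These examples were picked after their values were seen, and they were not counted against a list.

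The gene bed-2 itself lies on the right arm of III, at chrIII:11463665-11470808 on the minus strand. Within 2000 bp of it were 14 candidate regions, of which 0 were listed. The highest, in a coding exon, had a pooled signal of 52.2, with 28.7 in replicate 1 and 22.0 in replicate 2. The candidate nearest the upstream end of the gene, 24 bp above a transcript start, had 19.8 pooled, 7.996 in replicate 2 and no peak in replicate 1. All 14 lay below the lowest listed signal of the arms, which was 54.7 near hif-1 on V.

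The other 3 chromosomes had no common pattern to set these arms against. On I the arms had 42 listed regions of 5093 (0.825%) and the centre 66 of 4623 (1.43%). On IV the arms had 47 of 4774 (0.985%) and the centre 39 of 4967 (0.785%), and on X the arms had 50 of 6099 (0.820%) and the centre 40 of 5765 (0.694%). The arms of V, at 0.424%, had the lowest share of the 6 chromosomes, and the arms of II (0.875%) and III (0.896%) lay among the others. No test was run between chromosomes beyond those given above.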

How the data were processed

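The analysis started from 8 deposited peak lists (ce11), of which the series has 4 and each replicate 2. Accompanying text files deposited with the samples trace a replicate's lists to its own alignment plus a control, and the series lists to both alignments. The aligner is not given in the sources used here, nor is the peak caller. Each peak carries a signal value, the authors' own, and a score that the authors derived from the global IDR. In ranked lists the −log10 of the IDR is also given, as deposited. The conservative list holds 615 of the 635 peaks of the ranked list (82301 peaks) that reach a global IDR of 0.01, and the step that removed the others, which used 1 further file, is not described. Another 8 columns of matched-peak values, which could not be tied to a sample, were not used. The replicates are biological per the labels. Read counts are not in the files used, so depth is unknown.

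Overlapping ranked peaks of the same arm or centre were merged, keeping the summit and signal of the strongest. A replicate's signal in a region is the highest among its own overlapping ranked peaks. Summits were placed, in a fixed order, as promoter, 5' UTR, 3' UTR, coding exon, non-coding RNA body, intron or intergenic with genes of Ensembl release 115. Bases were read from the RefSeq copy of that assembly, in which all peak ends lay inside their chromosomes. Windows of 50 bases either side of a summit were searched with blastn 2.17.0. Arms and centres were compared with generalised linear models in statsmodels 0.14.6, with chromosome as a covariate, errors clustered in 51 blocks of 1 Mb, two-sided Wald tests and Benjamini-Hochberg adjustment over 11 tests at 0.05. Models were also run on simulated outcomes with a planted arm effect. Those outcomes had no structure by copy, class or chromosome, so no support is drawn from them here. The p-values rest on regions within the same 2 samples, not on further animals. Intervals of shares are 95% exact Clopper-Pearson intervals. Shares that a count of 0 allows are instead 3 counts over the number of candidates or genes. Other tools were Python 3.11.15, numpy 2.4.6, pandas 2.3.3, scipy 1.17.1 and matplotlib 3.10.9.

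The members, gene lists and words were chosen with earlier results of these data known. Named regions are the 20 of highest signal among listed arm regions with the gene of the nearest start and a divergent neighbour within 1000 bp, the strongest of each arm and class, the 3 with the lowest and the 3 with the highest ratio of the replicates, up to 3 bound arm genes of each list, those nearest the borders, the 3 strongest not listed and those at bed-2. Regions named outside this rule were chosen after their values were seen. Alternatives covered the arm definition, lists, IDR threshold, merging, overlap, signal filter, promoter width, error blocks, recurring sequence, and each chromosome or replicate left out, and 3 were added after seeing the data. Of the named regions 1 is not reported here.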

Additional observations from a re-analysis of the deposited data

Results flagged for a closer look

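The arm effect on presence in the conservative list differed between windows with another copy in the genome and windows without one, which was tested as an interaction (ratio 0.216, 95% interval 0.124 to 0.378, Wald test). The odds ratio of arms over centre was 0.215 with another copy and 0.998 without. The share listed was 0.510% in the arms and 2.33% in the centre with another copy, and 0.809% and 0.812% without. The split by copies was chosen after the data were seen, and no explanation for it was tested.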

How the results depend on the processing

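The promoter share of candidates (odds ratio 0.789) and the intron share kept their direction and stayed past the threshold under all 21 alternatives run for each. Some of these could not change them. The optimal list, the other IDR thresholds and the overlap rule alter only which regions are listed. Other error blocks alter only the intervals and p-values. The odds ratio of being listed stayed below 1 in all 20 alternatives but lost its call in 9: 0.804 with 33.3% at each end as arms, 0.863 at an IDR of 0.05, 0.740 unmerged, 0.674 with 2 Mb blocks, 0.884 without chromosome V, 0.998 with recurring windows left out, and, of those chosen after the data were seen, 0.923 for right arms alone and 0.720 with class as a covariate. With 1 replicate left out it was 0.595 to 0.630, and the call was lost without replicate 2. Within promoters, where 0.704 did not pass, the ratio passed at 0.599 with 20% at each end as arms, 0.680 with the other ranked list, 0.678 with the optimal list, 0.692 at an IDR of 0.05, 0.704 with 250 kb blocks and 0.391 for left arms alone, and it reversed to 1.05 with recurring windows left out and 1.03 for right arms alone. The small difference in signal of all candidates lost its call unmerged (0.0243), above the median signal (0.00492) and with 1 replicate left out (0.00434 to 0.0198). Among listed regions it lost its call with 33.3% at each end as arms (-0.082), at an IDR of 0.001 (-0.11), without chromosome III (-0.095) and with 1 replicate left out (-0.14 to -0.11). The count of listed arm regions was 178 with 33.3% at each end as arms, 34 at an IDR of 0.001, 288 at an IDR of 0.05, 70 without chromosome II, 76 without III, and 48 to 51 in 1 replicate, against centres of 104, 62, 322, 115, 121, and 76 in either replicate. With recurring windows left out, coding exons turned to 1.08 and intergenic sequence to 0.954. Beyond what a setting removes by construction, the cause was not tested. With 2 replicates, no read counts and few listed regions per arm, differences between single arms can be shown only when large.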

Other observations

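On the right arm of II, summits within 1000 bp of gene starts took in gpb-1, a G protein beta subunit gene (72.1, in an intron), top-2 with npp-3, genes of topoisomerase II and a nucleoporin that share a region (78.2), and rab-7 with mex-1 (86.9), a late endosome gene and a germline RNA-binding protein gene. On the right arm of III, the region of rib-2 (106.8) is shared with the beta-tubulin gene tbb-1, and cox-5A, a gene of a subunit of the last respiratory complex, had 112.2. On the left arm of V, the chaperonin gene cct-7 lay within 1000 bp of a listed summit of 77.7. A pair of listed intronic summits on II, 4014 bp apart, had signals of 72.1 and 67.9. Their nearest start was that of daf-5, but they lay 2645 and 6659 bp upstream of it. These genes were picked after their values were seen, and nothing was counted from them.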
